A study of Mus musculus with 4 samples.

Results

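The solute carrier family 25 (SLC25) is the set of carrier proteins that move small metabolites across the inner membrane of the mitochondrion. Its genes were taken here as the mouse symbols beginning with Slc25a and a number, on probe sets that the platform annotation gives to 1 gene only. These were 93 probe sets of 44 genes, out of 18193 genes with such a probe set. Where a gene had several, the brightest on average over the 4 arrays stood for it. Of the 44 genes, 38 passed a filter on dim probe sets and were tested among 13564 genes, and the other 6 are given by their values.

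The inner mitochondrial membrane is closed to most charged metabolites, and carriers of this family open it selectively. They exchange ADP for ATP, bring in phosphate, shuttle the acids of the citric acid cycle and the amino acids linked to them, take in acylcarnitines for oxidation, and supply the matrix with cofactors, nucleotides, glutathione and iron. Several run in closely related pairs whose members differ in tissue or regulation. In the kidney they have been studied most in the tubule, a tissue that depends on oxidative metabolism.

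Total RNA of mouse mesangial cells, which support the glomerular capillaries, was measured on 4 one-colour arrays. The titles of 2 of them name low glucose, and those of the other 2 name TGFBeta, which the descriptions specify as TGFBeta1, a cytokine that promotes glomerular scarring. The glucose supplied to the TGF-beta1 arrays, the dose, the time, the strain and whether a group's arrays came from separate cultures are not stated in the labels. Glucose and cytokine therefore cannot be told apart, and p-values cover only how far these arrays differ from each other, and that may be technical.

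Values before a log2 difference are the deposited linear intensities, in the order low glucose replicates 1 and 2, then TGF-beta1 replicates 1 and 2. Array medians lay between 78.28 and 99.62. A log2 difference is TGF-beta1 minus low glucose, after adding a pseudocount of 46.88 and quantile normalisation, so the change of dim genes is understated. Brightness of different genes was used for the filter, for the spread shared by genes of like brightness and to pick genes to name. It was not tested as a difference in abundance between genes. The arrays, called LG1 and LG2 for low glucose and T1 and T2 for TGF-beta1 by replicate, formed 2 pairs with 1 array of either group, LG1 with T2 (pair 1) and LG2 with T1 (pair 2). A value "without" an array comes from a fit without the block, in which the pairs are no longer balanced. Titles with the same unnumbered repeat tag gave pair 1, and the other 2 arrays, whose titles share no repeat tag, were taken as pair 2. Across genes the arrays of a pair correlated at r = 0.988 and 0.99 and those of a group at 0.954 and 0.955, a description only, since genes are not independent. The genes listed as known to respond to TGF-beta1 or to glucose all passed: Pmepa1 (1.29), Ccn2 (0.98) and Smad7 (0.50; 0.22 without LG1 and 0.77 without LG2) rose, and Id3 (-0.99) and Txnip (-1.61) fell.

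Markers of the labelled cell type were mostly dim. Marker sums are of deposited intensities before normalisation and include markers below the filter. Array medians on that scale were 96.75 (LG1) and 99.62 (T2) in pair 1, against 78.28 (LG2) and 80.32 (T1) in pair 2. Of 9 mesangial or pericyte markers 7 passed the filter, and Thy1 and Gata3 did not. The summed intensity of the 9 was 1168 and 914 in low glucose against 1089 and 1356 with TGF-beta1, and Acta2 (0.32) and Mcam (0.34) rose. Of 8 tubule markers 6 passed, and the sum of all 8 was 5936 and 5049 in low glucose against 4109 and 4265 with TGF-beta1. Aqp1, a water channel, fell by 0.67, Cdh16, kidney cadherin, by 0.31 and Lrp2, the endocytic receptor megalin, by 0.29. Podocyte markers summed to 738 and 580 in low glucose against 545 and 778 with TGF-beta1, with 3 of 4 past the filter, Podxl higher (0.23) and Synpo lower (-0.58).

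Leukocyte markers summed to 1932 and 1540 in low glucose against 1242 and 1582 with TGF-beta1, with 4 of 5 past the filter. Most of that sum was Csf1r, which fell by 0.38, and Ptprc, which marks all leukocytes, lay below the filter. Endothelial markers summed to 277 and 219 in low glucose against 203 and 288 with TGF-beta1, with 1 of 5 past the filter. No marker was at 0 on any array. In bulk RNA, fewer cells of a type and less RNA per cell cannot be told apart.

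A gene is said to have risen or fallen where its adjusted p was under 0.05 in limma's test with the array pair as a block. By that rule 4 of the 38 carriers rose and 8 fell, and 26 did not pass. Over all genes tested 18.5% passed, 7.93% higher and 10.6% lower, and among the carriers 31.6%, 10.5% and 21.1%. The median log2 difference of the 38 carriers was -0.032 (-0.049 in pair 1 and -0.026 in pair 2), against -0.00034 over all genes tested. Differences of at least 0.3 in size were found in 2 carriers, 5.26% of them, against 6.54% of all genes. Both were higher, as in 3.09% of all genes, against 3.45% at least 0.3 lower. The difference was below 0 in 23 carriers (60.5%) and in 50.1% of all genes. The arrays of one group lay wholly above those of the other in 8 carriers (21.1%, against 20.9% of all genes, with 9.79% higher and 11.1% lower). The 8 were Slc25a25 and Slc25a37 among those that rose, Slc25a11, Slc25a36, Slc25a39, Slc25a46 and Slc25a51 among those that fell, and Slc25a13, which did not pass.

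These calls rest on the block and on a spread shared by genes of like brightness. The block was chosen with earlier results of these data known, in which the fit without it called no gene. Without the block limma called 0 of the 38 carriers and 0 of all genes, with 1 carrier, Slc25a25, and 269 genes (1.98%) at an unadjusted p under 0.05. With the block and the prior degrees of freedom of the fit without it, limma again called 0 of the 38 carriers and 0 of all genes, with 10 carriers and 2244 genes (16.5%) at an unadjusted p under 0.05.

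**Figure D1:**
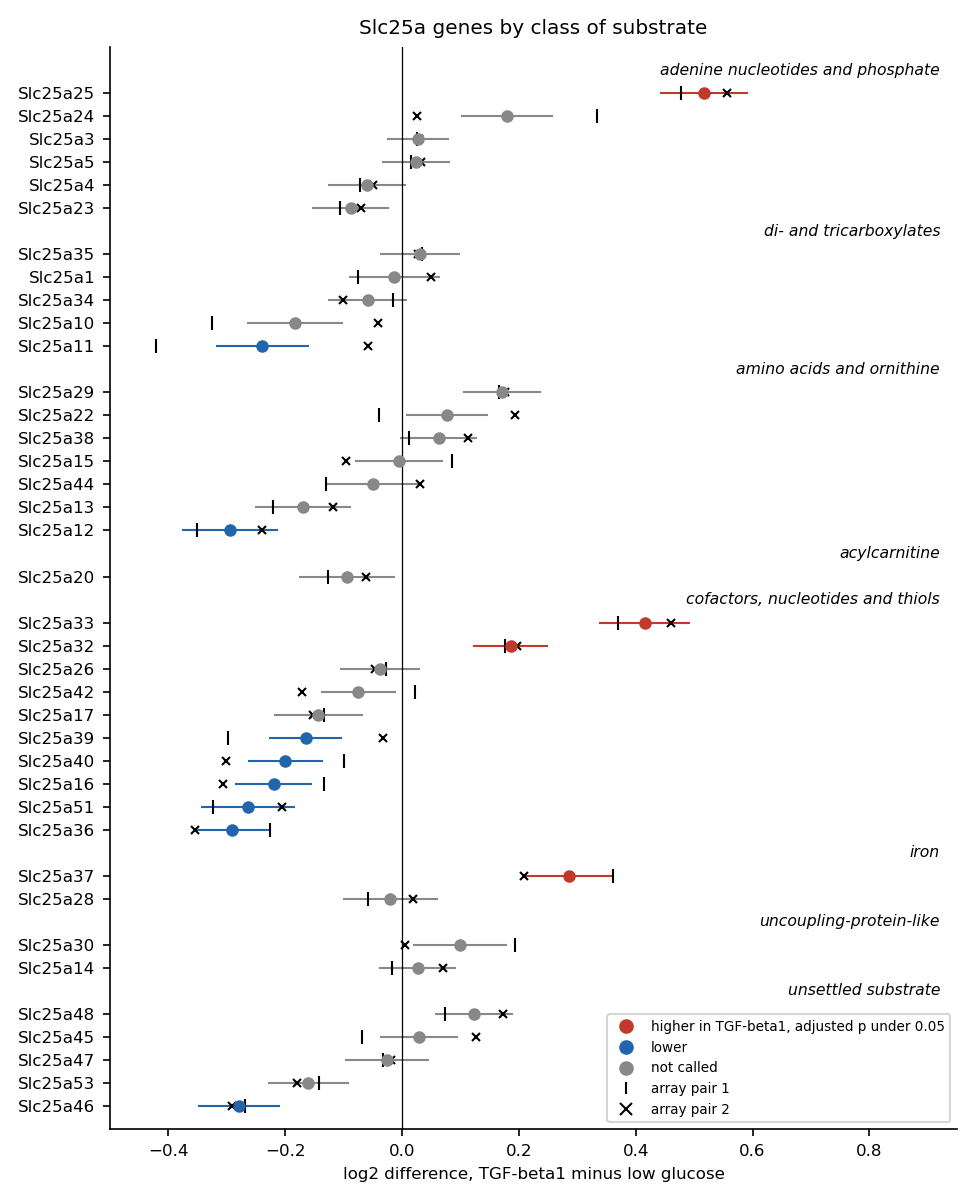
Log2 difference, TGF-beta1 minus low glucose, of the 38 tested Slc25a genes (x axis) grouped by what they carry (y axis); dots are the mean over the arrays (2 per group), bars are 1 standard error in limma with the pairs as a block, and the 2 black marks are the differences within each array pair. Slc25a25 and Slc25a33 lie farthest to the right at 0.52 and 0.42, and the 8 genes that fell lie between -0.30 and -0.17, 5 of them in the class of cofactors, nucleotides and thiols.

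The carriers of adenine nucleotides and phosphate held 1 riser and no gene that fell among 6 tested. The share called was 16.7%, against 18.5% of all genes tested. Slc25a25 encodes a calcium-regulated carrier that exchanges ATP-magnesium for phosphate and so sets the adenine nucleotide content of the matrix. Its intensities were 362 and 286 in low glucose against 449 and 517 with TGF-beta1, both TGF-beta1 arrays being above both others. It rose by 0.52 ± 0.076 (SE; 0.48 in pair 1 and 0.56 in pair 2; adjusted p = 4.32e-10), which is 1.43-fold on this scale and the largest size among the carriers tested. A second probe set past the filter was dimmer, with a mean of 131 against 404, and stood at 0.10. The third, at a mean of 20.7, was below the filter and stood at -0.064. Its relative Slc25a24, another ATP-magnesium carrier, had 1029 and 1364 in low glucose against 1397 and 1303 with TGF-beta1 and did not pass, at 0.18 ± 0.079 (0.33 and 0.026 in the pairs; adjusted p = 0.0994). Its second probe set was at 0.30 (0.37 and 0.24 in the pairs; adjusted p = 0.00121 when all kept probe sets were tested together). Slc25a23, the remaining ATP-magnesium carrier tested, was at -0.088 ± 0.066.

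The bulk carriers of oxidative phosphorylation differed little. Slc25a4 and Slc25a5 encode ADP/ATP translocases, and Slc25a3 the phosphate carrier. Slc25a3 had intensities of 4500.2, 4646, 4533 and 4744, and its log2 difference was 0.027 ± 0.052. Slc25a5 had 3624, 3523, 3563 and 3723, with a difference of 0.023 ± 0.058. The groups overlapped on the normalised scale for each, and neither passed. The 7 other probe sets of Slc25a5 lay between 0.019 and 0.13. Several of these have IDs ending in _x_at, which may also match near-identical transcripts. Slc25a4 was at -0.060 ± 0.066, with values that sorted by pair, 2356 and 2242 in pair 1 and 2947 and 2841 in pair 2. Slc25a31, the translocase best known from germ cells, was dim at 8.6 to 12.5, and Slc25a41 and Slc25a54 were also below the filter.

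Cofactors, nucleotides and thiols formed the largest class, with 10 genes tested, of which 2 rose and 5 fell, where 7.93% of all genes rose and 10.6% fell. The median of the 10 was -0.15. Slc25a33 and Slc25a36 both carry pyrimidine nucleotides into the matrix, and they moved oppositely. Slc25a33 had 341 and 442 in low glucose against 624 and 447 with TGF-beta1, and it rose by 0.42 ± 0.078 (0.37 and 0.46 in the pairs; adjusted p = 2.66e-06), or 1.33-fold. After normalisation its groups overlapped by a small margin, its lower TGF-beta1 array, T2, being at 8.937 and LG2 at 8.942. Slc25a36 had 254 and 300.4 in low glucose against 221 and 213 with TGF-beta1, with no overlap, and it fell by 0.29 ± 0.067 (-0.23 and -0.36 in the pairs; adjusted p = 0.000214). Its second probe set past the filter was at -0.12. Slc25a33 was at 0.23 without LG1, 0.18 without T1 and 0.65 without T2, and Slc25a36 was at -0.15 without LG2.

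The sequences upstream of Slc25a25, Slc25a33 and Slc25a36 are shown because the first 2 had the largest rises and the third fell although it shares a substrate with Slc25a33. Each is the 250 bases before a RefSeq start on GRCm38.p6, 5′ to 3′ on the gene's strand, with motif matches in capitals. Slc25a25 has 3 starts in the table, and the one shown, chr2:32424067-32424316 on the minus strand, is the only one with a cAMP response element; the arrays do not show which start was used. Slc25a33 is chr4:149774268-149774517, minus strand, and Slc25a36 is chr9:97111042-97111291, minus strand.
Slc25a25: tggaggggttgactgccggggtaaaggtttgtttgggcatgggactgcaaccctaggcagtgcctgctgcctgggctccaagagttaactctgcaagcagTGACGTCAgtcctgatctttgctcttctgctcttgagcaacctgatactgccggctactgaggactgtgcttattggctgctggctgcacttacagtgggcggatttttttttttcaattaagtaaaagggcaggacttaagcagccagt
Slc25a33: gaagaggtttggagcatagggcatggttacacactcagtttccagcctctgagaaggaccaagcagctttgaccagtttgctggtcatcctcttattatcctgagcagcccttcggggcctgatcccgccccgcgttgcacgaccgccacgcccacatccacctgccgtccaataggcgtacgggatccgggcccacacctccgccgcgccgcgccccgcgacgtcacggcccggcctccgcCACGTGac
Slc25a36: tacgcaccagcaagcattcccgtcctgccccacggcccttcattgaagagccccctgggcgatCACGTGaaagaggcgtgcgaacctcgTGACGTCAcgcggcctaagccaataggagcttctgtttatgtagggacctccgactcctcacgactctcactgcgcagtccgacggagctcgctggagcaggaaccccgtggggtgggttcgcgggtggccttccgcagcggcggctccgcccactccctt
In Slc25a25 the capitals mark the cAMP response element TGACGTCA, at bases -150 to -143 from the start. In Slc25a33 they mark the E-box CACGTG at -8 to -3. In Slc25a36 they mark an E-box at -187 to -182 and a cAMP response element at -161 to -154.

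Those motifs were searched on both strands in the same window of all tested genes with a promoter in the table, 10907 genes, of which 31 were Slc25a genes. The cAMP response element TGACGTCA was found in 2 of the 31 and in 2.8% of all genes, and the E-box CACGTG in 6 of the 31 and in 9.57%. The SMAD site CAGAC, or its complement, was found in 15 of the 31 and in 46.4% of all genes. Of the 12 carriers that rose or fell, 8 had a window. Among those 8 the SMAD site occurred in another window of Slc25a25 and in Slc25a16 and Slc25a40, and its other matches were in carriers that did not pass. The NRF1 core motif was found in 0 of the 31 and 1.63% of all genes, the ETS site CCGGAAGT in 1 and 5.96%, and the amino acid response site TGATGCAA in 0 and 0.669%. No motif overlapped another in the 3 sequences shown. A match describes letters and is not evidence of binding.

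The other cofactor carriers that changed supply folate, NAD, glutathione and coenzyme A. Slc25a32, a folate and flavin carrier, had 137 and 236 in low glucose against 282 and 161 with TGF-beta1. It rose by 0.19 ± 0.064 (0.18 and 0.20 in the pairs; adjusted p = 0.0255), while its groups overlapped because pair 2 was brighter than pair 1. Leaving out LG1 or T1 turned it to -0.20 or -0.21, and leaving out LG2 or T2 gave 0.57 or 0.58. Its call ended with no filter or without the intensity trend. Slc25a51, the mitochondrial NAD carrier, had 613 and 602 in low glucose against 519 and 477.0 with TGF-beta1, the latter both lower, and it fell by 0.26 ± 0.081 (-0.32 and -0.21; adjusted p = 0.00892). Its other probe sets past the filter differed from this, at -0.071 and 0.055.

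Slc25a39 and Slc25a40, related carriers needed for glutathione import, both fell. Slc25a39 had 3388 and 2860.0 in low glucose against 2785 and 2795 with TGF-beta1, a small separation that came mostly from LG1. Its difference was -0.17 ± 0.063 (-0.30 and -0.033 in the pairs; adjusted p = 0.0485), and 4 further probe sets past the filter lay between -0.23 and -0.019. The call of Slc25a39 ended with the authors' scaling, no filter, no intensity trend, all kept probe sets tested, or probe sets ending in _x_at and _s_at left out. Without LG1 it was at -0.076, and without LG2 at -0.25. Slc25a40 had 138 and 274 in low glucose against 210 and 129 with TGF-beta1, so its groups overlapped, and it fell by 0.20 ± 0.064 (-0.099 and -0.30; adjusted p = 0.0137). It was at -0.66 without LG1, 0.26 without LG2, -0.56 without T1 and 0.16 without T2.

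Slc25a16, linked to coenzyme A supply, behaved in the same way across the arrays. Its intensities were 178 and 349 in low glucose against 271 and 160 with TGF-beta1, with overlap between groups and a lower TGF-beta1 array in each pair. It fell by 0.22 ± 0.066 (-0.13 and -0.31; adjusted p = 0.00719). It was at -0.68 without LG1, 0.24 without LG2, -0.59 without T1 and 0.15 without T2. Slc25a42, a coenzyme A and ADP carrier (-0.075 ± 0.065), Slc25a26, which carries S-adenosylmethionine (-0.038 ± 0.068), and Slc25a17, a peroxisomal member of the family (-0.14 ± 0.076), did not pass.

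**Figure D2:**
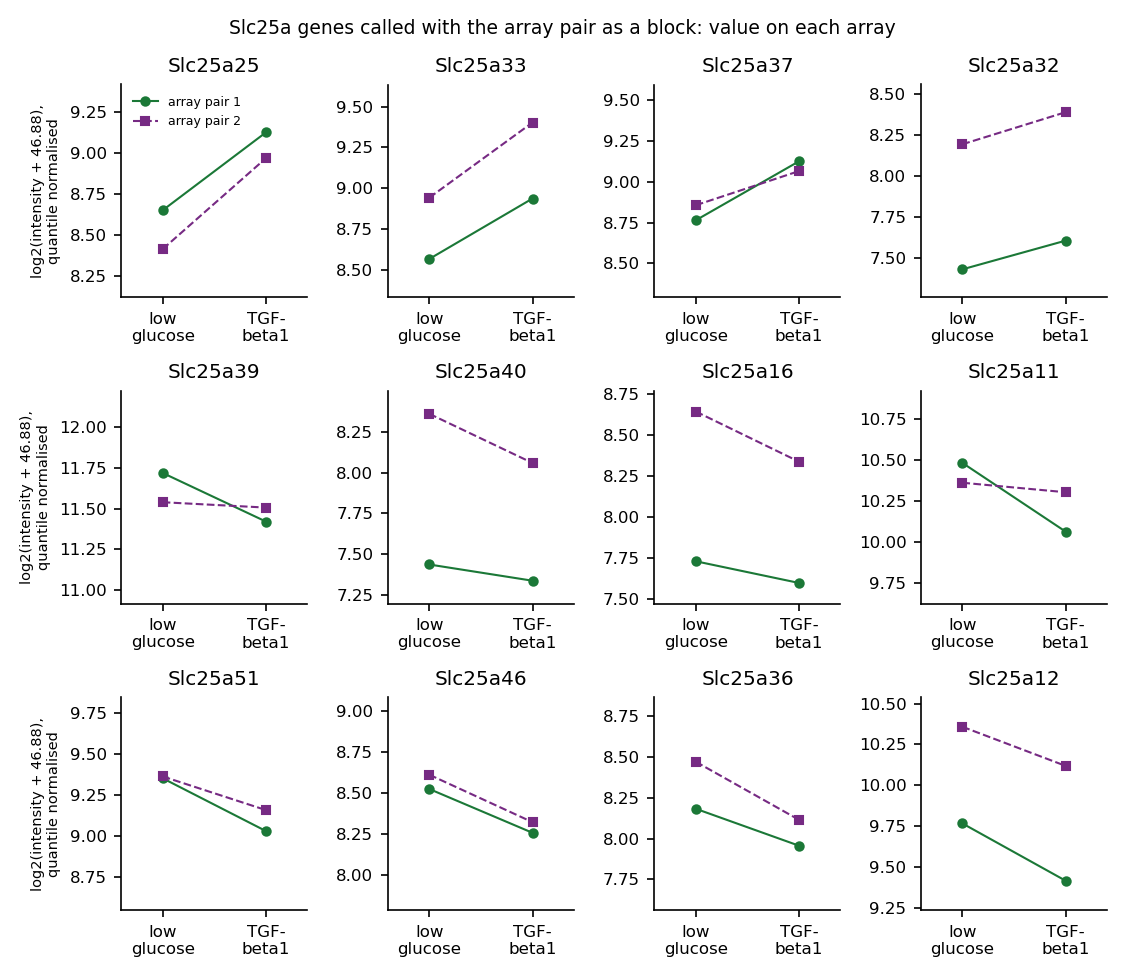
Normalised log2 values on each array (y axis, log2 of intensity plus 46.88) of the 12 Slc25a genes that rose or fell, with low glucose at left and TGF-beta1 at right (x axis); each line joins the 2 arrays of a pair. All panels span the same height on different levels. The lines of Slc25a32, Slc25a40, Slc25a16 and Slc25a12 run in the same direction at levels that do not meet. Those of Slc25a33 do so too, with T2 at 8.937 just under LG2 at 8.942.

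Iron import showed a difference between its 2 carriers in values, which was not itself tested. Slc25a37 (mitoferrin 1), the iron importer best known from red cell precursors, had 396 and 413 in low glucose against 487 and 516 with TGF-beta1. Its groups did not overlap, and it rose by 0.29 ± 0.078 (0.36 and 0.21 in the pairs; adjusted p = 0.00273). Another probe set that names Slc25a37 also names a second gene and was not used. Slc25a28 (mitoferrin 2), the more widely expressed importer, had 677 and 605 in low glucose against 618 and 649 with TGF-beta1 and was at -0.020 ± 0.082 without passing.

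Of the carriers of di- and tricarboxylates, 1 of 5 fell and none rose. Slc25a11 exchanges 2-oxoglutarate for malate and is a step of the malate-aspartate shuttle, which brings reducing power from cytosolic NADH into the matrix. It had 1415 and 1237 in low glucose against 1199 and 1040.1 with TGF-beta1, with no overlap but with most of the fall in pair 1. It fell by 0.24 ± 0.080 (-0.42 and -0.058; adjusted p = 0.0195), and was at -0.36 without T1 and -0.12 without T2. Slc25a10, the dicarboxylate carrier, had 874 and 589 in low glucose against 573 and 685 with TGF-beta1 and did not pass, at -0.18 ± 0.082 (-0.32 and -0.042), with its other probe set at -0.17. Slc25a1, the citrate carrier that feeds fatty acid synthesis, had 1624 and 1172 in low glucose against 1222 and 1526 with TGF-beta1, with a difference of -0.013 ± 0.078. Slc25a34 and Slc25a35, placed in this class by the list used here, were at -0.059 and 0.031.

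The amino acid carriers held 1 gene that fell among 7 tested, or 14.3% called, against 18.5% of all genes tested. Slc25a12 (aralar) and Slc25a13 (citrin) exchange aspartate for glutamate and form the other carrier step of the malate-aspartate shuttle. Slc25a12 had 842 and 1234 in low glucose against 1052 and 647 with TGF-beta1, with overlap between groups and a lower TGF-beta1 array in each pair. It fell by 0.30 ± 0.082 (-0.35 and -0.24; adjusted p = 0.00343). It was at -0.59 without LG1, 0.00046 without LG2, -0.65 without T1 and 0.056 without T2. Its second probe set past the filter was at -0.11, with opposite signs in the pairs (0.11 and -0.32). Slc25a13 had 740 and 695 in low glucose against 639 and 625 with TGF-beta1, with both TGF-beta1 arrays lower, but did not pass at -0.17 ± 0.082 (-0.22 and -0.12; adjusted p = 0.141).

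Slc25a29, a carrier of basic amino acids, lay just outside the threshold at 0.17 ± 0.066 (0.17 and 0.18 in the pairs; adjusted p = 0.0518), and its 4 other probe sets past the filter lay between 0.041 and 0.19. Slc25a15, the ornithine carrier of the urea cycle, had 584 and 627 in pair 1 and 260.1 and 239 in pair 2, so that its arrays sorted by pair and not by group (-0.0051 ± 0.076). Slc25a22, a glutamate carrier, at 0.077, Slc25a38, a glycine carrier, at 0.063 and Slc25a44, a carrier of branched-chain amino acids, at -0.050 did not pass. Slc25a18, a second glutamate carrier, and Slc25a2, a second ornithine carrier, were below the filter, with intensities of 42.6 to 81.6 and at most 55.9.

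The remaining classes held 1 call, where 18.5% of all genes tested were called. Slc25a20, the carnitine/acylcarnitine carrier that admits fatty acids to oxidation, had 730 and 895 in low glucose against 854 and 661 with TGF-beta1 and was at -0.095 ± 0.082. Its second probe set was at -0.048. The uncoupling-protein-like Slc25a30 and Slc25a14 were at 0.099 ± 0.081 and 0.026 ± 0.067, and Slc25a27 was below the filter. Among the 5 genes that the lists put in no substrate class, Slc25a46, an outer membrane protein tied to mitochondrial fission, fell, with 330 and 339 in low glucose against 267 and 266 with TGF-beta1. Its groups did not overlap, the difference was -0.28 ± 0.070 (-0.27 and -0.29 in the pairs; adjusted p = 0.000901), and its second probe set was at -0.30. Slc25a53 was at -0.16, Slc25a48 at 0.12, Slc25a45 at 0.029 and Slc25a47 at -0.025, none passing.

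Probe sets of the same gene mostly shared a sign. Of 20 carriers with another probe set past the filter, all others had the sign of the tested one in 17. The exceptions were Slc25a3 (0.027 against -0.0011), Slc25a48 (0.12 against -0.12) and Slc25a51, of which 1 of 2 others was opposite. In Slc25a25, Slc25a32, Slc25a36 and Slc25a12 the dimmer probe sets past the filter showed smaller differences of the same sign, and in Slc25a46 the values were close.

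**Figure D3:**
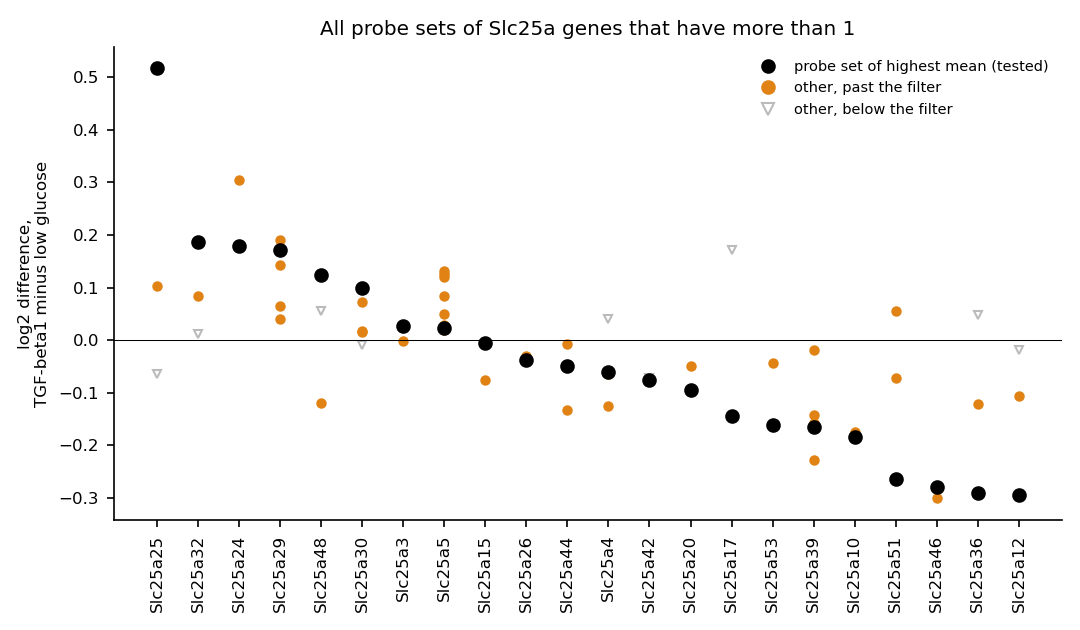
Log2 difference, TGF-beta1 minus low glucose (y axis), of every probe set of the 22 tested Slc25a genes that have more than 1 (x axis); black dots are the probe sets tested, orange dots other probe sets past the filter and grey triangles those below it. Slc25a25 stands at 0.52 with its second probe set at 0.10, while the probe sets of Slc25a46 lie at -0.28 and -0.30.

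The division into array pairs was larger than the division into groups for most carriers. In 29 of the 38 tested carriers the difference between pairs exceeded that between groups in size, and over all genes tested this held in 76.2%. Slc25a15 differed by 1.08 between the pairs, Slc25a16 by -0.83, Slc25a40 by -0.82, Slc25a53 by -0.78 and Slc25a32 by -0.78. Slc25a37 (-0.016), Slc25a51 (-0.070), Slc25a46 (-0.076) and Slc25a11 (-0.060) differed little between pairs. The sign was the same in both pairs in 30 of the 38 carriers, and in 68.3% of all genes. All 12 genes that rose or fell had the same sign in both. The call rests on the mean of the 2 pairs, which makes a shared sign likely without requiring it. Slc25a39 (-0.033) and Slc25a11 (-0.058) moved little in pair 2.

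**Figure D4:**
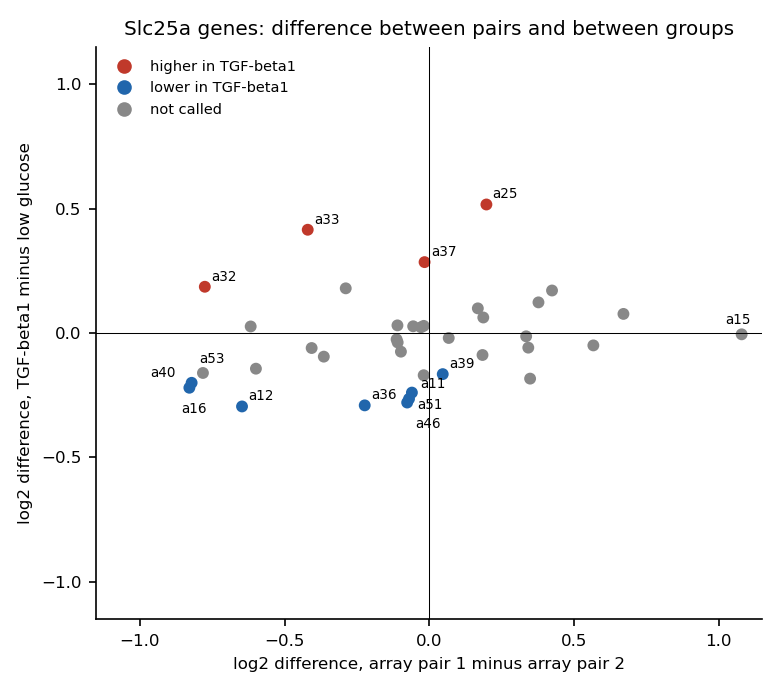
Each dot is 1 of the 38 tested Slc25a genes, with its log2 difference between the array pairs (x axis) and between TGF-beta1 and low glucose (y axis) on equal scales, and genes that rose, fell or did not pass in different colours. The spread is wider along x, reaching 1.08 in Slc25a15, than along y, where Slc25a25 is highest at 0.52.

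The carriers were set beside 65 other mitochondrial genes from 5 lists, of which 3 rose and 9 fell. These 12 of 65 are the same share as the 18.5% called over all genes tested. Of 5 family members listed under different symbols, Ucp2 was not analysed here and the other 4 did not pass: Mtch1 was at -0.12, Mtch2 at -0.0052, Ucp1 at 0.025 and Ucp3 at 0.034. Of 14 genes of the machinery that imports carriers, Timm10, a chaperone of the space between the mitochondrial membranes, rose by 0.25 ± 0.080 (0.22 and 0.27 in the pairs; adjusted p = 0.0154), and was at 0.16 without LG1 and 0.13 without T1. The other 13 did not pass. Among 14 genes of other membrane transport, 2 fell. Sfxn2, of the sideroflexin family, fell by 0.36 ± 0.072 (adjusted p = 1.15e-05), and was at -0.60 without LG1, -0.13 without LG2, -0.65 without T1 and -0.076 without T2. Abcb10, an inner membrane transporter needed for haem synthesis, fell by 0.18 ± 0.066 (adjusted p = 0.0385), and was at -0.28 without LG1 and -0.085 without LG2. The call of Abcb10 ended with no filter (adjusted p = 0.0808 in limma), with all kept probe sets tested (0.051) and without the intensity trend (0.0655). The pore proteins Vdac1, Vdac2 and Vdac3 were at -0.041, 0.043 and 0.058, and Mpc1, a subunit of the pyruvate carrier, at -0.053.

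Of 23 enzymes that use the carried metabolites, 1 rose and 4 fell, where 7.93% of all genes rose and 10.6% fell. The median of the 23 was -0.059. Mthfd2, which works on folate in the matrix, had 1086 and 1021 in low glucose against 1387 and 1466 with TGF-beta1, and rose by 0.42 ± 0.080 (0.41 and 0.42 in the pairs; adjusted p = 3.96e-06). It moved in the direction of the folate carrier Slc25a32, whose difference turned to -0.20 without LG1 and -0.21 without T1. Shmt2 (-0.047) and Mthfd1l (-0.0073), of the same pathway, did not pass. Cpt2, which releases fatty acids from the carnitine that Slc25a20 carries, had 486 and 445 in low glucose against 375 and 343 with TGF-beta1, and fell by 0.33 ± 0.076 (-0.45 and -0.21; adjusted p = 0.000202). Cpt1c fell by 0.27 ± 0.068 (-0.16 without T2), and Arg2, the mitochondrial arginase that yields ornithine, by 0.32 ± 0.077 (-0.54 without LG1 and -0.10 without LG2). Arg2 was dim, with 73.6 and 96.0 in low glucose against 61.0 and 59.7 with TGF-beta1. On the normalised scale only its LG2 value lay above the level of the filter. Nadk2, the mitochondrial NAD kinase, was the other that fell, by 0.18 ± 0.064, and was named after its value was seen. The shuttle enzymes Got1 (0.13), Got2 (-0.064), Mdh1 (-0.059) and Mdh2 (-0.037) did not pass, and neither did citrate synthase, Cs (-0.027).

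Among 10 regulators of mitochondrial biogenesis 1 rose and 3 fell, where 7.93% of all genes rose and 10.6% fell. Ppargc1a, a coactivator of mitochondrial genes, had 168 and 177 in low glucose against 107 and 105 with TGF-beta1, with no overlap, and fell by 0.53 ± 0.065 (-0.54 and -0.52; adjusted p = 3.37e-14). Gabpa, an ETS factor, fell by 0.27 ± 0.065 (-0.13 without LG1 and -0.41 without LG2). Tfb1m fell by 0.23 ± 0.075 and was at -0.71 without LG1, 0.24 without LG2, -0.65 without T1 and 0.18 without T2. Its call ended when probe sets ending in _x_at or _s_at, the tested one among them, were left out (-0.16; adjusted p = 0.0701 in limma). Pprc1, a relative of Ppargc1a, rose by 0.30 ± 0.082 and was at 0.74 without LG1, -0.14 without LG2, 0.74 without T1 and -0.14 without T2. The tubule markers Aqp1, Cdh16 and Lrp2 fell in these arrays too, and their part in the falls of the carriers and of these genes was not tested.

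**Figure D5:**
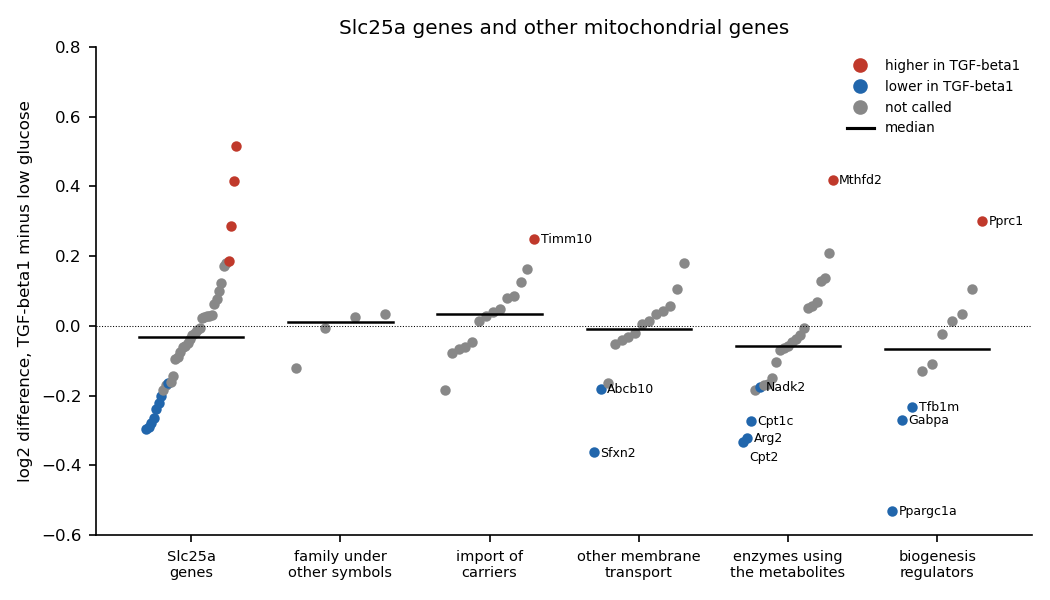
Log2 difference, TGF-beta1 minus low glucose (y axis), of the tested Slc25a genes and of 5 lists of other mitochondrial genes (x axis); each dot is a gene and each line the median of its list. The medians lie between -0.066 and 0.034, and the farthest genes are Ppargc1a at -0.53 and Slc25a25 at 0.52.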

How the data were processed

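The authors deposited 1 linear intensity per probe set and array for 4 arrays of mouse mesangial cell RNA. The labels do not state how probes were summarised and arrays scaled. Array groups came from the titles. Symbols came from the platform annotation: leaving out 64 control probe sets, 34945 of 45037 had 1 symbol, 932 several and 9160 none here.

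The computed values were log2(intensity + 46.88), with a pseudocount equal to the lower quartile of the deposited values, followed by quantile normalisation, since array medians differed by up to 0.227. The dimmest 40% of probe sets by mean log2 value were left out, and the brightest probe set of a gene was tested. The test was limma (3.58.1, R 4.3.3), a two-sided test by lmFit and eBayes that lets the variance follow intensity, with the array pair as a block and Benjamini-Hochberg adjustment over 13564 genes. It leaves 1 residual degree of freedom and takes an infinite prior, so the standard error depends on brightness alone. Its median was 0.0718, against 0.183 without the block, where 2 degrees of freedom are left and the prior is 2.79. The labels do not say that the pairs share a culture or a day. The 18 hybridisation spike-in probe sets, which hold no RNA of the cells, differed by 0.0449 and 0.0847 on average within the pairs and by at least 0.855 between arrays of different pairs.

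The script was checked on simulated arrays with known differences. Their noise was of the same size for every gene, so they could not test the shared spread on which the calls rest. Substrate classes, other lists and the rule for named genes (carriers past the threshold or at least 0.3 in size, the brightest of each class, up to 4 called genes of each list, and checks of the treatment) were chosen with earlier results of these data known. So was the block, after a fit without it had called no gene. Of 47 carriers listed, 3 were not analysed here. Promoters are from RefSeq (GRCm38.p6), which held windows for 34 of the 44 carriers. The number of arrays limits the precision. Figures used matplotlib 3.10.9 (Python 3.11.15).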

Additional observations from a re-analysis of the deposited data

How the results depend on the processing

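The 4 carriers that rose and the 8 that fell passed with median centring, pseudocounts of 16 and 100, a floor in place of a pseudocount, a filter at the 60th percentile and the probe set chosen by mean log2 value. The carriers called lower were 7 with the authors' scaling, with all kept probe sets tested and without probe sets ending in _x_at or _s_at, where Slc25a39 did not pass, and 3 rose and 7 fell with no filter or without the intensity trend. Those that passed there were among the 12.

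Without the replicate block, and with the replicate block at the prior of the fit without it, limma called 0 carriers, 0 other mitochondrial genes and 0 genes over the table, in either direction. When all kept probe sets were tested, 1876 were higher and 2409 lower, more because more probe sets were tested. The share of calls that were higher was 42.8%, against 33.5% with median centring and 46.1% with the authors' scaling. The median difference of the carriers was -0.051 with median centring and -0.049 within pair 1 alone. Leaving out 1 array was done without the block and unbalances the pairs. It gave between 0 and 10 genes higher over the table and between 0 and 5 lower. It gave 0 carriers and 0 other mitochondrial genes in either direction with each array left out, and carrier medians between -0.052 and 0.011. Over the arrays left out, the direction of these named genes that had passed turned: Slc25a32 (from -0.21 to 0.58, below 0 without LG1 at -0.20 and T1 at -0.21), Slc25a12 (-0.65 to 0.056, above 0 without LG2 at 0.00046 and T2 at 0.056), Slc25a16 (-0.68 to 0.24, above 0 also at 0.15), Slc25a40 (-0.66 to 0.26, also 0.16), Pprc1 (-0.14 to 0.74, below 0 without LG2 and T2) and Tfb1m (-0.71 to 0.24, also 0.18). It also turned in named carriers that had not passed: Slc25a1 (-0.21 to 0.19), Slc25a20 (-0.29 to 0.10), Slc25a28 (-0.073 to 0.033), Slc25a3 (-0.0013 to 0.056) and Slc25a30 (-0.032 to 0.23). The cause of these moves was not tested.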
